A study of Mus musculus with 8 samples.

Results

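The signals of *neurotensin* (*Nts*), its receptors *Ntsr1* and *Ntsr2*, and *sortilin 1* (*Sort1*) were compared among 4 hypothalamic nuclei, the arcuate nucleus (Arc), the ventromedial hypothalamus (VMH), the dorsomedial hypothalamus (DMH), and the lateral hypothalamus (LH). All probes that the array files pair with a RefSeq accession of these genes were taken, which gave 4 of the 20284 genes with a symbol and 7 of the 55681 probes on the array. *Nts* (NM_024435) has 1 probe, and *Ntsr1* (NM_018766), *Ntsr2* (NM_008747), and *Sort1* (NM_019972) have 2 each. The files do not say which exon a probe targets. The nuclei came from female mice at 3 months of age, of the strain C57BL/6 in the labels and C57BL/6J in the methods, for which the labels name no treatment, and were cut out of brain sections by laser microdissection. The methods describe RNA of 2 females, amplified before labeling, and each nucleus was measured on 2 arrays (Arc1 and Arc2, VMH1 and VMH2, DMH1 and DMH2, LH1 and LH2). Which arrays came from the same mouse is not given in the sources used here, so p-values measure the spread between these arrays.

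Neurotensin is a short secreted peptide, cut by proprotein convertases from a precursor that also holds neuromedin N, and it is made in the lateral hypothalamus by neurons that project to the midbrain dopamine neurons and that are linked to feeding and body temperature. NTSR1 and NTSR2 are G protein-coupled receptors, the first with the higher affinity and coupled to Gq, the second found on neurons and also on astrocytes. Sortilin binds neurotensin but is a sorting receptor of the Vps10p domain family, with a single membrane pass, that moves cargo such as progranulin and pro-neurotrophins between the Golgi, the cell surface, and lysosomes.

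The sequence just upstream of *Nts* is shown because this gene had the largest differences among the nuclei of the 4 genes. In RefSeq (GRCm38.p6) the 250 bases before the *Nts* start lie at chr10:102490419-102490668 on the minus strand, and they are written 5′ to 3′ as transcribed, with an AP-1 match (TGANTCA) and a CRE-like match (TGACNTCA) in capitals.
Nts: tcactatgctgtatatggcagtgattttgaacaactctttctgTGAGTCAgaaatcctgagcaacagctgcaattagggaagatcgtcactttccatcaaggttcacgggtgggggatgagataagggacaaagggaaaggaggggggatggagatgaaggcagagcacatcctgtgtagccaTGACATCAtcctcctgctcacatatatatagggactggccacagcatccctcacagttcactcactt
Both motifs were searched on both strands and were chosen with this sequence known. The AP-1 match lies at positions -207 to -201 and the CRE-like match at -67 to -60, counted back from the start, and they do not overlap. Of 32851 upstream windows of the same length, 6.75% held the AP-1 letters and 7.49% the CRE-like letters. The windows of *Ntsr1* and *Ntsr2* held neither, which says only that these letters are not in those 250 bases.

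The dissections were first checked by genes known for each nucleus. The 4 Arc genes (*Agrp*, *Npy*, *Pomc*, and *Kiss1*) and the 2 VMH genes (*Nr5a1* and *Fezf1*) were highest in their own nucleus. *Prdm13*, *Npvf*, and *Grp* were highest in the DMH, but the study had picked them on these arrays for being so, and they are no check of that dissection. The 2 LH genes, *Hcrt* and *Pmch*, which mark orexin and melanin-concentrating hormone neurons, were highest in the LH, but their summed signal was 62914 to 72193 on the DMH arrays, against 123621 to 133755 on the LH arrays, 3415 to 4623 on the VMH arrays, and 286 to 312 on the Arc arrays. The 9 oligodendrocyte genes were measured on all 8 arrays and summed to 124190 to 125344 in the LH, 37183 to 46596 in the VMH, 34649 to 35073 in the DMH, and 16633 to 24797 in the Arc. The LH arrays stood apart from each other: LH1 and LH2 correlated at 0.9379 over the probes tested, the other pairs of a nucleus at 0.9713 to 0.9814, and LH2 correlated at 0.9541 with DMH2. Of the 4 genes listed for the paraventricular nucleus, which was not among the nuclei measured here, the hormone genes *Oxt* and *Avp* also set them apart, with 109 and 279 on LH1 and 8332 and 2432 on LH2. *Oxt* reached 6559 on Arc1, *Sim1* was measured on no array, and the summed signal was 5355 on LH1, 14459 on LH2, and 541 to 6971 on the others. The part of that nucleus in the LH and DMH signals was not tested. Calls of the 4 genes in which the LH takes part are therefore also given without each LH array.

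Among the nuclei, 3 of the 7 probes differed by the F-test of limma at an adjusted p under 0.05, those of *Nts*, *Ntsr1* (A_55_P2005655), and *Sort1* (A_52_P590396), while 8.34% of all 28896 probes tested did. The signals below are processed intensities divided by the 75th percentile of the array, called scaled signals, and a probe is called measured on an array where the scanner software marked it well above background. A level cannot be compared between probes, and in dissected tissue fewer cells of a type and less RNA per cell cannot be told apart.

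**Figure D1:**
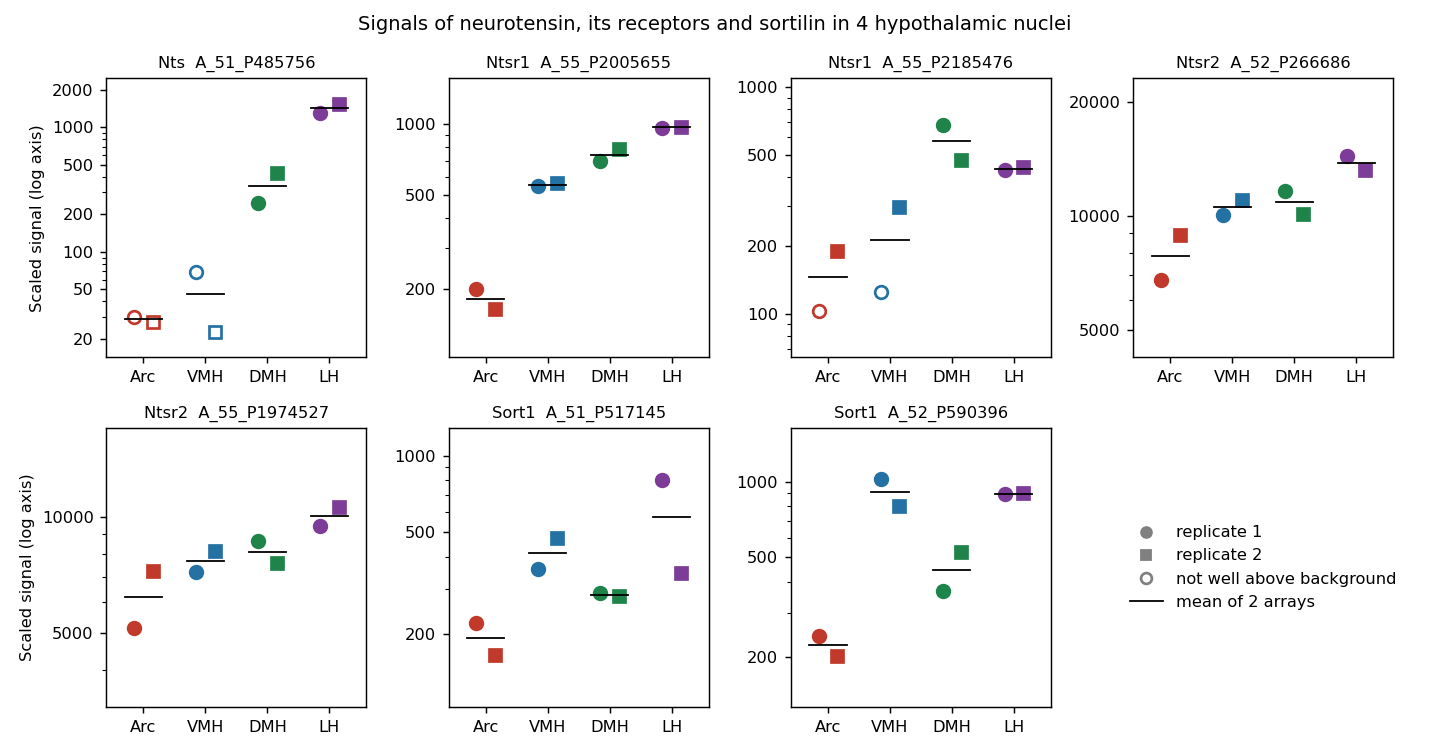
Scaled signal of each of the 7 probes on the 8 arrays (log axis, each panel with its own range), with open symbols for arrays on which the probe was not well above background and lines for the mean of the 2 arrays of a nucleus. *Nts* was measured only on the DMH and LH arrays, where it lay between 246 and 1542, and each of the 6 probes of *Ntsr1*, *Ntsr2*, and *Sort1* had its lowest mean in the Arc.

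*Nts*, the peptide precursor, was measured on both LH arrays and both DMH arrays and on none of the others. Its scaled signal was 1291 on LH1 and 1542 on LH2 (1417 ± 177, SD, n = 2). In the DMH it was 246 on DMH1 and 427 on DMH2 (336 ± 128, SD, n = 2). The LH and DMH arrays thus did not overlap, with the LH above the DMH in each slide row. The probe gave 30.1 and 27.5 on Arc1 and Arc2 and 69.2 and 22.9 on VMH1 and VMH2, all under the lowest measured signal of their arrays, which was 88.3 to 127. For the Arc and the VMH these values are bounds and not levels.

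The difference of *Nts* among the nuclei passed the test (adjusted p = 0.00378). *Nts* of the LH was at least 12.5-fold higher than that of the Arc (log2 difference 5.62, SE 0.52, adjusted p = 0.00219) and at least 13.6-fold higher than that of the VMH (log2 difference 5.15, adjusted p = 0.00399). Here a bound sets the bright nucleus against the lowest measured signal of the dim one, and the log2 difference uses the dim signals as given. Under normexp, a background correction that adds an offset of 50, the differences were called but were 2.77 to the Arc (adjusted p = 0.000436) and 2.75 to the VMH (adjusted p = 0.000718), smaller than these bounds, which hold only for the signals as processed. With the dim signals raised to the lowest measured value of their array they were 3.64 and 3.76. Both calls were made with LH1 left out (adjusted p = 0.00529 against the Arc and 0.00851 against the VMH) and with LH2 left out (adjusted p = 0.00457 and 0.00714).

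The DMH also had more *Nts*, at least 2.86-fold higher against the Arc (log2 difference 3.49, adjusted p = 0.0287) and at least 3.11-fold higher against the VMH (log2 difference 3.02, adjusted p = 0.0370). These calls were less secure than those of the LH. With every dim signal set to the lowest measured value of its array, the difference to the Arc was 1.52 on the log2 scale (adjusted p = 0.0686), and under normexp it was 1.201 (adjusted p = 0.0630). It was also lost without Arc1, Arc2, DMH1, or DMH2 (adjusted p up to 0.165). The difference to the VMH was 1.64 with dim signals raised (adjusted p = 0.0394) and 1.19 under normexp (adjusted p = 0.0499). It was lost with no filter on dim probes (adjusted p = 0.0547), in a fit of the 2 nuclei alone (0.0585), and without Arc1, Arc2, VMH2, DMH1, or DMH2 (adjusted p up to 0.203). *Hcrt* and *Pmch*, the LH genes given above, were high on the same DMH arrays as *Nts*, and their part in the *Nts* signal of the DMH was not tested.

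The LH exceeded the DMH in *Nts* by 2.12 on the log2 scale, with a 95% interval of 0.91 to 3.34, which did not pass the adjustment over all probes (adjusted p = 0.139). Without LH1 it was 2.25 (adjusted p = 0.128) and without LH2 2.00 (adjusted p = 0.169). It passed where the dim signals were raised (adjusted p = 0.0243) or the background was corrected by normexp (adjusted p = 0.0244). The order of the levels of *Nts* was therefore LH, then DMH, with the step between them undecided, and then the Arc and the VMH, in which it was not measured.

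*Ntsr1*, the Gq-coupled receptor, was lowest in the Arc. Its probe A_55_P2005655 was measured on all 8 arrays. The scaled signal was 199 and 165 on the Arc arrays (182 ± 24.6, SD, n = 2) and 546 and 564 on the VMH arrays (555 ± 12.7). It was 699 and 787 on the DMH arrays (743 ± 62.6) and 961 and 979 on the LH arrays (970 ± 12.6). No nucleus overlapped another at this probe. The mean went up from the Arc through the VMH and the DMH to the LH.

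The difference of *Ntsr1* at this probe passed the test among the nuclei (adjusted p = 0.0033). Compared to the Arc, *Ntsr1* was higher by 2.42 on the log2 scale in the LH (SE 0.20, adjusted p = 0.00167), by 2.03 in the DMH (adjusted p = 0.00705), and by 1.62 in the VMH (adjusted p = 0.00656). Under normexp these differences were called at 1.52, 1.23, and 0.84. The LH call was made without LH1 (adjusted p = 0.00404) and without LH2 (adjusted p = 0.00281). Without Arc2, the DMH and VMH differences missed the threshold (adjusted p = 0.0548 and 0.0600), as did the VMH difference without VMH1 (0.0518) or VMH2 (0.0510). The neighbours in the order were not told apart by the test. The DMH lay above the VMH by 0.42 (95% interval -0.053 to 0.889, adjusted p = 0.475) and the LH above the DMH by 0.39 (-0.085 to 0.858, adjusted p = 0.394). The LH lay above the VMH by 0.80 (0.33 to 1.28, adjusted p = 0.0700), which passed under normexp (adjusted p = 0.0426) and with a filter on all 8 arrays (0.0497) but not without LH1 (0.105) or LH2 (0.107).

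The other *Ntsr1* probe, A_55_P2185476, gave another order of nuclei. It was measured on 6 arrays, and Arc1 and VMH1 were not among them. Its scaled signal was 103 and 189 on the Arc arrays (146 ± 60.7, SD, n = 2), 125 and 297 on the VMH arrays (211 ± 122), 683 and 478 on the DMH arrays (580 ± 145), and 429 and 444 on the LH arrays (437 ± 10.6). At this probe the DMH was the highest nucleus and the VMH overlapped the Arc. Its differences to the Arc were 2.04 in the DMH (SE 0.47, adjusted p = 0.121) and 1.65 in the LH (adjusted p = 0.0739, 0.119 without LH1, and 0.138 without LH2), close to those of the first probe in the DMH but with a larger error. Under normexp they were smaller and were called, at 1.23 (adjusted p = 0.0327) and 0.97 (adjusted p = 0.0267), and Arc1, which was not measured, enters both. The F-test missed the threshold (adjusted p = 0.0815), and passed it under normexp (0.0217) and with trended and robust moderation (0.0460). The LH was below the DMH by 0.39 (log2 difference -0.39, 95% interval -1.49 to 0.72), opposite in sign to the first probe, and neither difference passed the test. Both probes thus put the Arc lowest, and they differ on whether the DMH or the LH is highest. Over the 8 arrays they correlated at 0.7354.

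*Ntsr2*, the receptor also found on astrocytes, varied least of the 4 genes. Its probe A_52_P266686 gave 6800 and 8918 on the Arc arrays (7859 ± 1497, SD, n = 2), 10088 and 11039 on the VMH arrays (10564 ± 673), 11661 and 10121 on the DMH arrays (10891 ± 1089), and 14399 and 13263 on the LH arrays (13831 ± 803). Probe A_55_P1974527 gave 5144 and 7215 in the Arc (6179 ± 1464), 7183 and 8138 in the VMH (7661 ± 675), 8660 and 7583 in the DMH (8121 ± 762), and 9490 and 10610 in the LH (10050 ± 792). At both probes the LH arrays lay above all others, and the VMH and DMH arrays overlapped. The probes correlated at 0.9619 over the 8 arrays.

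The F-test of *Ntsr2* was not passed at either probe (adjusted p = 0.181 and 0.289). The LH exceeded the Arc by 0.83 on the log2 scale at the first (95% interval 0.31 to 1.35, adjusted p = 0.0622) and by 0.72 at the second (0.16 to 1.28, adjusted p = 0.107). Of the 12 alternative settings, 3 called this difference at the first probe and 1 at the second, and none of the 8 fits without an array did. The DMH and the VMH differed by 0.04 and 0.08, with 95% intervals from -0.476 to 0.560 and from -0.474 to 0.642. The 8 astrocyte genes were measured on all arrays. Their summed signal was 44821 to 52479 in the Arc, 66025 to 66465 in the VMH, 62806 to 64022 in the DMH, and 94442 to 102773 in the LH. It was thus highest in the LH but did not go up from the VMH to the DMH. *S100b* and *Slc1a2* had the largest signals and weigh most in this sum, while *Slc1a3* and *Gja1* had their highest means in the DMH. Of these 8 genes, 4 passed the F-test (8.34% of all probes did). *Gjb6*, *Slc1a2*, and *S100b* were highest in the LH, *Gfap* was highest in the Arc, and the test was passed at 1 of the 3 *Slc1a2* probes. The part of astrocytes in the *Ntsr2* signal was not tested.

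*Sort1*, the sorting receptor, was low in the Arc and high in the VMH and the LH. Its probe A_52_P590396 was at 243 and 203 on the Arc arrays (223 ± 28.8, SD, n = 2) and at 1025 and 805 on the VMH arrays (915 ± 156). It was at 368 and 525 on the DMH arrays (446 ± 111) and at 893 and 903 on the LH arrays (898 ± 6.86). The VMH and LH arrays overlapped and lay above those of the DMH, which lay above those of the Arc.

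At this probe the nuclei differed (adjusted p = 0.0101). *Sort1* was higher than in the Arc by 2.03 on the log2 scale in the VMH (SE 0.25, adjusted p = 0.00665) and by 2.01 in the LH (adjusted p = 0.00532), and under normexp these differences were 1.38 and 1.34 (adjusted p = 0.00373 and 0.00352). The LH and the VMH differed by -0.02 (95% interval -0.62 to 0.58). The DMH lay between, 0.98 above the Arc (adjusted p = 0.167), with the VMH 1.05 and the LH 1.03 above it (adjusted p = 0.119 and 0.142). The LH call held without LH1 (adjusted p = 0.0123), without LH2 (0.0120), and, over all 8 fits without an array, at an adjusted p of 0.0114 to 0.0480. The VMH call was lost without Arc2 (0.0607) or VMH1 (0.0586), and the F-test without Arc1 (0.0555) or Arc2 (0.0720).

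The other *Sort1* probe, A_51_P517145, was at 221 and 165 on the Arc arrays (193 ± 39.7, SD, n = 2), 360 and 473 on the VMH arrays (416 ± 80.2), 287 and 280 on the DMH arrays (284 ± 5.35), and 802 and 346 on the LH arrays (574 ± 322). LH1 was far above all other arrays at this probe, and LH2 was below both VMH arrays. Its F-test was not passed (adjusted p = 0.168), but it was without LH2 (0.0218). The LH exceeded the Arc by 1.46 (adjusted p = 0.0675), by 2.07 without LH2 (adjusted p = 0.00845), and by 0.86 without LH1 (adjusted p = 0.114). Of the 12 alternative settings, 5 called this difference (adjusted p = 0.0338 to 0.0490), among them normexp, under which it was 0.91. The VMH exceeded the Arc by 1.11 (adjusted p = 0.178), which was called in a fit of the 2 nuclei alone (0.0465) and without LH1 (0.0388) or LH2 (0.0446). The LH exceeded the DMH by 1.499 without LH2 (adjusted p = 0.0445). The 2 probes correlated at 0.8077 over the arrays. For all 9 oligodendrocyte genes, each by its brightest probe, the LH exceeded the Arc (adjusted p under 0.05 for each, against 6.02% of all probes). Of the 3 *Mbp* probes, 1 passed the F-test. The part of oligodendrocytes in the *Sort1* signal was not tested.

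**Figure D2:**
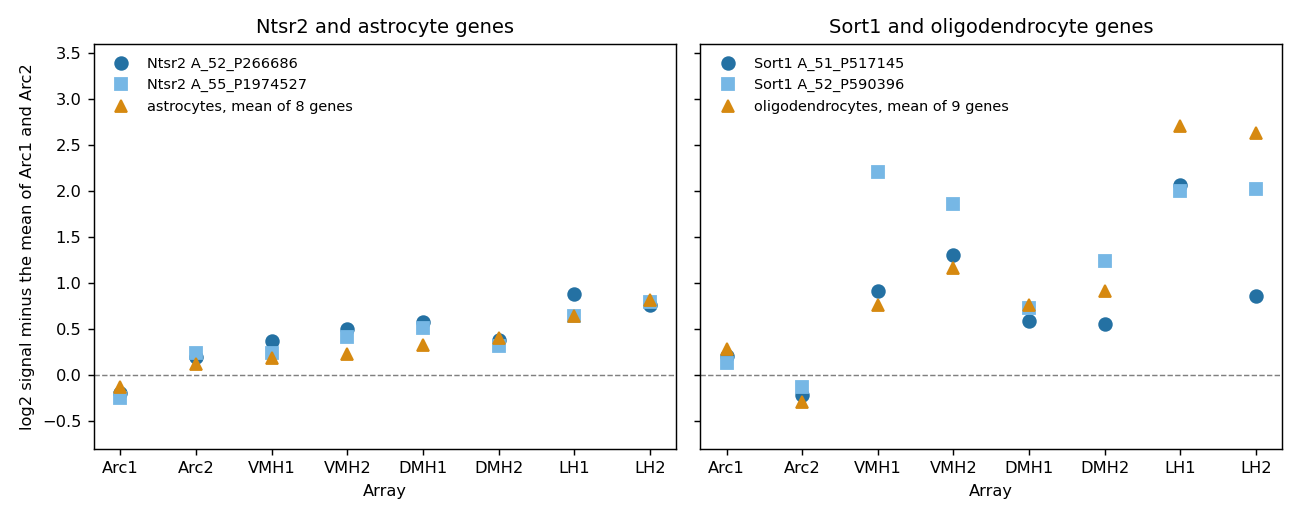
Log2 scaled signal on each array, relative to the mean of Arc1 and Arc2, of the *Ntsr2* probes beside the mean of 8 astrocyte genes (left) and of the *Sort1* probes beside the mean of 9 oligodendrocyte genes (right). Both *Ntsr2* probes and the astrocyte mean are highest on the LH arrays, and at A_52_P590396 *Sort1* lies above the oligodendrocyte genes in the VMH and below them in the LH.

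Between the LH and the Arc, 3 of the 7 probes were called higher in the LH (6.02% of all probes were). Between the VMH and the Arc, 2 of 7 were called higher in the VMH (3.52% of all), and between the DMH and the Arc, 2 of 7 were called higher in the DMH (0.727% of all). *Nts* was the 1 probe of 7 called between the DMH and the VMH (0.945% of all were called higher in the DMH) and between the LH and the VMH (3.04% of all were called higher in the LH). Between the LH and the DMH, limma called 0 of 7 (0.664% of all were called higher in the LH), with an unadjusted p under 0.05 at 2 of them, *Nts* and *Sort1* (A_52_P590396). All of these pairwise calls were lost where the variances were not moderated and Tukey-Kramer p-values were used, which were also adjusted over all probes. The probes of a gene are not independent of each other, and the comparisons share arrays.

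**Figure D3:**
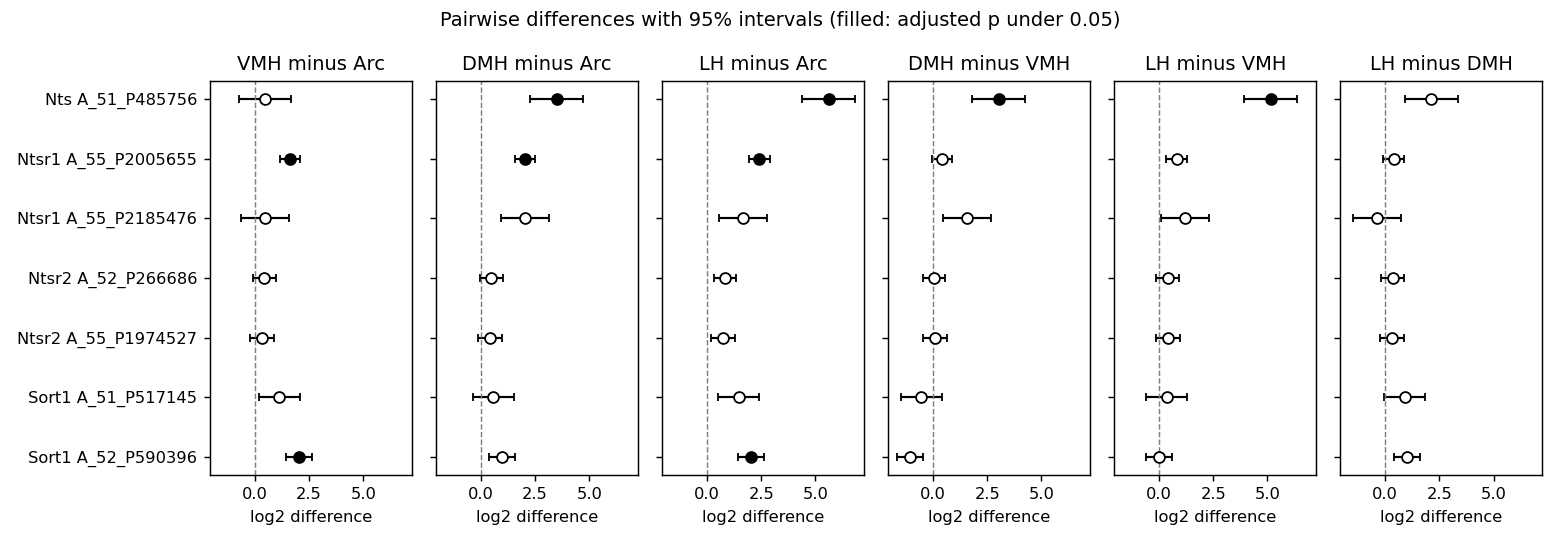
Difference of the mean log2 scaled signal for the 6 pairs of nuclei at the 7 probes, with 95% intervals from limma and filled points for an adjusted p under 0.05. Filled points are seen in the 3 comparisons with the Arc and, for *Nts* alone, in those of the DMH and the LH with the VMH.

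The genes that make and break down neurotensin differed less than *Nts* itself. Of 9 listed genes, 8 were tested and 2 passed the F-test among nuclei (8.34% of all probes did), where the median range between the highest and lowest nucleus was 0.752 on the log2 scale, against 0.647 over all probes tested. *Pcsk1*, which encodes a proprotein convertase of the regulated secretory pathway, had a scaled signal of 2839 and 3048 in the LH and of 1543 and 1830 in the Arc. It was 1004 and 990 in the VMH and 1308 and 1222 in the DMH. *Pcsk1* was thus higher in the LH than in each other nucleus, by 0.81 than in the Arc (adjusted p = 0.0475), by 1.56 than in the VMH (0.0083), and by 1.22 than in the DMH (0.0470). *Pcsk2*, the other convertase of this pathway, was at 8621 and 11772 in the Arc and at 24368 and 22579 in the VMH, and the LH exceeded the Arc by 1.18 (adjusted p = 0.0269). This holds for its brighter probe, and 1 of its 2 probes passed the F-test. Against the Arc, 3 of the 8 genes were called higher in the LH (6.02% of all probes were). Both F-test calls of the list were lost with no scaling, and without VMH1 or VMH2.

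Of the sortilin family and its partners, 12 of 13 genes were tested and 3 passed the F-test (8.34% of all probes did), with a median range of 0.967 (0.647 over all probes). They were *Bdnf* and *Ngfr*, whose proteins meet sortilin in pro-neurotrophin signaling, and *Gga3*, an adaptor for Golgi sorting. *Bdnf* was at 1730 and 1735 in the VMH, 590 and 498 in the LH, 275 and 492 in the DMH, and was not measured in the Arc. Against the Arc, *Bdnf* was at least 15.3-fold higher in the VMH (adjusted p = 0.00285) and at least 4.80-fold higher in the LH (adjusted p = 0.00902). *Ngfr*, the p75 neurotrophin receptor, was low in the VMH alone, at 215 and 227. It was at 3202 and 6158 in the Arc, 2842 and 2392 in the DMH, and 2490 and 4799 in the LH. The VMH was below the Arc (log2 difference -4.33, adjusted p = 0.00252). The DMH and the LH lay above the VMH by 3.56 and 3.97 (adjusted p = 0.00881 and 0.00442). Neither passed against the Arc (log2 differences -0.77 and -0.36, adjusted p = 0.606 and 0.610). *Gga3* was 1.26 higher in the VMH than in the Arc (adjusted p = 0.0189). By their brightest probes the other Vps10p domain genes, *Sorl1*, *Sorcs1*, *Sorcs2*, and *Sorcs3*, missed the threshold of the F-test, but 1 of the 2 probes of *Sorcs1* passed it. At those brightest probes *Sorl1* was called above the Arc in the LH (1.28, adjusted p = 0.0233) and *Sorcs1* in the VMH (1.12, adjusted p = 0.0341). Against the Arc, 3 of the 12 genes were called higher in the VMH (3.52% of all probes) and 1 lower (2.4% of all). In the LH 2 were called higher (6.02% of all).

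Among 15 genes of Gq signaling, which acts downstream of NTSR1, 14 were tested and 4 passed the F-test (8.34% of all probes), with a median range of 0.989 (0.647 over all). Against the Arc, 6 of the 14 were called higher in the VMH (3.52% of all probes were), 4 in the LH (6.02% of all), and 1 in the DMH (0.727% of all). All 4 F-test calls of the list were lost without Arc1 or Arc2, and 2 genes passed without VMH1 or VMH2. The median difference between the VMH and the Arc was 0.643 in this list and 0.671 over 8 neuron genes. The neuron genes summed to 153064 to 156539 in the Arc, 203079 to 222642 in the VMH, 165906 to 166920 in the DMH, and 183402 to 213176 in the LH, over the 6 of them with a value on every array. Of the neuron genes, *Rbfox3*, which encodes NeuN, was higher by 1.88 in the VMH than in the Arc (adjusted p = 0.00795), and the part of neurons in the Gq values was not tested. *Plcb1*, a phospholipase C, was the gene with the largest range. It was at 1287 and 1155 in the Arc, 4974 and 3880 in the VMH, 2982 and 2934 in the DMH, and 4038 and 4522 in the LH. It was higher than in the Arc by 1.85 in the VMH (adjusted p = 0.00501), 1.28 in the DMH (0.0450), and 1.81 in the LH (0.00433). *Arrb1*, a beta-arrestin, and *Prkcb*, a protein kinase C, were also higher than in the Arc in the VMH and the LH, *Arrb1* by 1.32 and 1.53 and *Prkcb* by 1.44 and 1.13. The values of *Plcb1* and *Prkcb* are those of the brighter probe, and 1 of the 2 probes of each passed the F-test. The same was so for *Plcb4*, another phospholipase C, whose brighter probe missed the threshold (adjusted p = 0.0546). *Itpr1*, an inositol trisphosphate receptor of the endoplasmic reticulum, was high in the VMH alone, by 1.52 above the Arc (adjusted p = 0.00805), 1.35 above the DMH (0.0221), and 1.49 above the LH (0.0108).

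**Figure D4:**
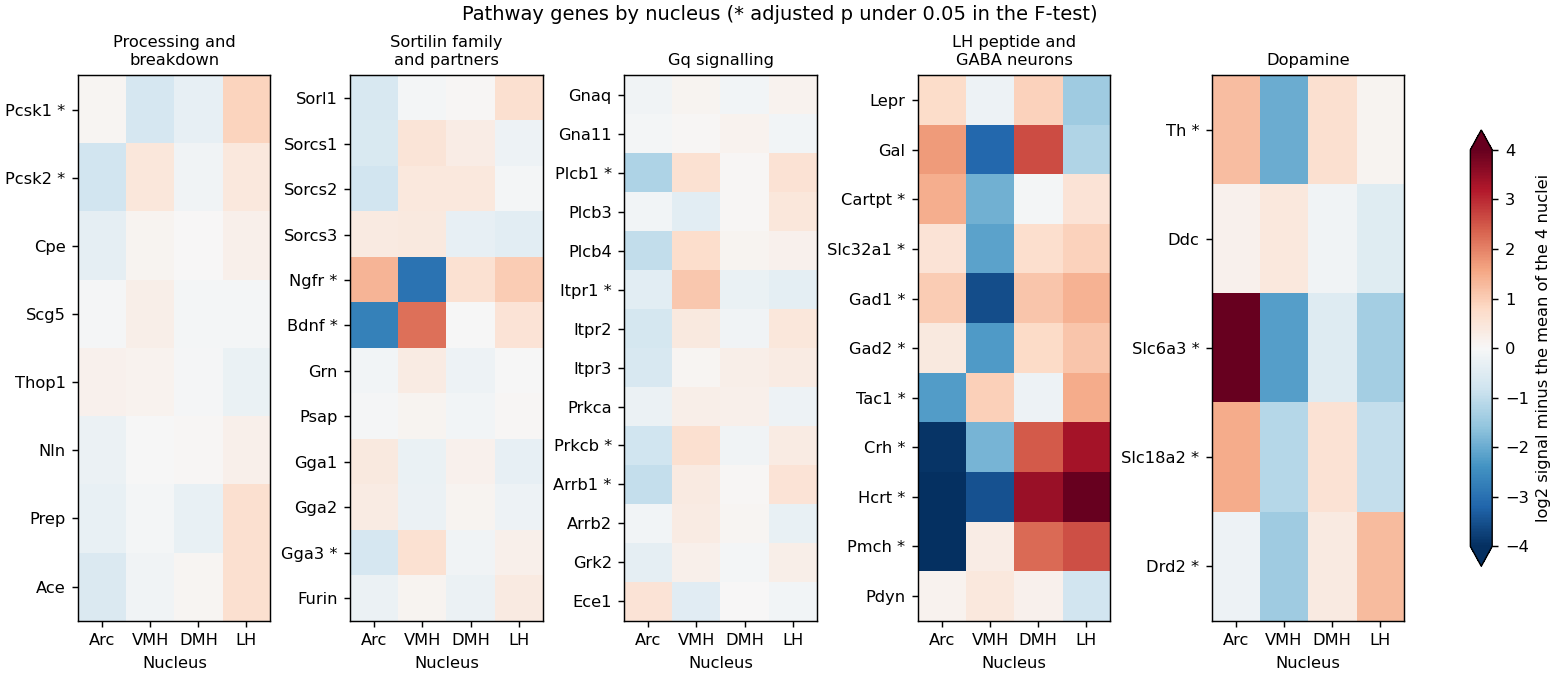
Mean log2 scaled signal of each tested list gene in a nucleus minus its mean over the 4 nuclei, with the color scale ending at -4 and 4 and an asterisk for an adjusted p under 0.05 in the F-test. Several genes of the Gq and sortilin lists are lowest in the Arc, and *Crh*, *Hcrt*, and *Pmch* are high in the DMH and the LH, the nuclei in which *Nts* was measured.

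Genes of the peptide and GABA neurons of the LH had wide ranges, with a median of 3.7 (0.647 over all probes), and 8 of 11 passed the F-test (8.34% of all). Of these 8, 7 had their highest mean in the LH and *Cartpt* in the Arc. The 3 that missed the threshold were not highest in the LH. Of the 11 genes, 7 were called higher in the LH than in the VMH (3.04% of all probes were). Against the Arc 4 were called higher in the LH (6.02% of all), and against the DMH 1, *Tac1* (0.664% of all). *Gad1*, *Gad2*, and *Slc32a1* were not told apart between the LH and the Arc (adjusted p = 0.339, 0.142, and 0.456). The neuropeptide gene *Gal* was at 656 and 13551 on LH1 and LH2, which are far apart, against 40669 and 43021 in the DMH and 20838 and 24187 in the Arc (adjusted p = 0.0695). *Lepr*, the leptin receptor, and *Pdyn*, prodynorphin, had their lowest means in the LH (adjusted p = 0.289 and 0.155). *Hcrt* was at 105971 and 116750 in the LH and at 55940 and 51283 in the DMH, and the LH exceeded the Arc by 9.03 on the log2 scale (adjusted p = 0.000343). *Pmch* was at 17650 and 17005 in the LH and at 16253 and 11631 in the DMH, and it was not measured in the Arc, from which the LH differed by at least 153-fold. *Crh*, corticotropin-releasing hormone, which is also a known gene of the paraventricular nucleus and stands in both lists, was at 4931 and 3623 in the LH and at 2026 and 2543 in the DMH, which put them at least 37.4-fold and at least 20.1-fold over the Arc. *Gad1*, which makes GABA, was low in the VMH (372 and 266) and between 7194 and 9704 elsewhere.

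Of the dopamine genes, 5 of 6 were tested and 4 passed the F-test (8.34% of all probes), with a median range of 2.67 (0.647 over all). *Ddc*, which makes dopamine from its precursor, did not pass by its brightest probe (adjusted p = 0.416), but 1 of its 2 probes passed. *Slc6a3*, the dopamine transporter, was at 3264 and 3696 in the Arc, at least 33.4-fold above the VMH and at least 31.6-fold above the LH. *Th*, tyrosine hydroxylase, and *Slc18a2*, the vesicular monoamine transporter, were also highest in the Arc, the nucleus in which *Ntsr1* was lowest. *Drd2*, a dopamine receptor, was highest in the LH, with 1986 and 1767, against 1118 and 914 in the DMH, 587 and 792 in the Arc, and 288 and 303 in the VMH. Its difference between the LH and the Arc was 1.46 (adjusted p = 0.0124) and between the LH and the VMH 2.67 (adjusted p = 0.00274). Between the LH and the DMH it was 0.89, which did not pass (adjusted p = 0.160).

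The genes whose log2 signal followed that of a member most closely over the 8 arrays were named by Pearson's correlation, given as a description, since the arrays of a nucleus move together. For *Nts* they were *Abhd3* (0.9931), *Fstl5* (0.9869), and *AI593442* (0.9842), among 17159 probes with a symbol. *Nts* was not measured on 4 of the 8 arrays, so its correlations rest in part on values that are bounds. For *Ntsr1* (A_55_P2005655) they were *Lypd6b* (0.9946), *Slc35f1* (0.9927), and *Epha8* (0.9923), and for its other probe *Lef1* (0.9734), *Vcam1* (0.9691), and *Cacng3* (0.9625). *Ntsr2* was followed by *Cyp2d11* (0.9896), *Aph1a* (0.9832), and *Slc39a12* (0.9781) at A_52_P266686 and by *Kitl* (0.9761), *Itsn1* (0.9696), and *Gpatch11* (0.9661) at A_55_P1974527. *Sort1* was followed by *Hecw2* (0.9857), *Marchf5* (0.9851), and *Camk1d* (0.9843) at A_52_P590396 and by *Gatb* (0.9783), *Vps9d1* (0.9776), and *Slc36a1* (0.9749) at A_51_P517145. No gene was named for both probes of a member. Among the members, *Nts* correlated at 0.8034 (A_55_P2005655) and 0.6963 (A_55_P2185476) with *Ntsr1*. With *Ntsr2* it correlated at 0.7547 (A_52_P266686) and 0.7362 (A_55_P1974527), and with *Sort1* at 0.491 (A_51_P517145) and 0.4879 (A_52_P590396).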

How the data were processed

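Gene expression was measured on 8 one-color Agilent mouse arrays, 2 for each of 4 nuclei, grouped by the labels. The authors extracted a red-channel intensity per spot with Agilent Feature Extraction (version 10.7.3.1 in the file headers, 11.5.1.1 in the submitters' processing notes), and each deposited signal is a linear intensity, background-subtracted and not scaled between arrays. The labels name Cy3 and the methods Cy5, which the red channel reads. A normalization between arrays and the genome build are not given in the sources used here. The deposited table of all arrays, also intensity, served as an alternative.

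Spots marked as outliers (126 to 364 of 59305 per array) were left out, the others were averaged per probe, arrays were divided by their 75th percentile (the divisors having a geometric mean of 1), and log2 was taken. Between 47.1% and 52.7% of spots were well above background, and 0 were saturated. A probe was measured on an array where at least as many of its spots were well above background as not. Precision is limited by signal over background and by the small number of arrays. All arrays came from 1 scan, and the replicate number equals the slide row. One linear model with a mean per nucleus was fitted with limma 3.58.1 in R 4.3.3 to the 28896 probes that at least 1 nucleus measured on both its arrays (residual degrees of freedom 4, prior 3.02), giving moderated F-tests and 6 pairwise tests, adjusted by Benjamini and Hochberg over all probes with a threshold of 0.05. The scripts were tested on simulated data.

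Of 28390 probes with a RefSeq accession, 26762 (94.27%) were given a symbol through RefSeq on GRCm38.p6, used for names and upstream sequence only. Promoter sequence was found for *Nts*, *Ntsr1*, and *Ntsr2*. Genes named are all probes of the 4 genes, the called genes of each pathway list (up to 4 by range), the 3 most alike genes per probe, and markers of the nuclei. The astrocyte genes, the Vps10p domain genes, *Plcb4*, *Ddc*, *Rbfox3*, *Mbp*, *Oxt*, *Avp*, *Sim1*, *Cartpt*, *Gal*, *Lepr*, *Pdyn*, *Tac1*, *Gad2*, and *Slc32a1* were named after their values were seen. A list gene with several probes was represented by the brightest one tested. The members and lists were chosen with earlier results of these data known. Marker lists for neurons, microglia, endothelial cells, ependymal cells with tanycytes, the paraventricular nucleus, and the anterior pituitary were also summed. Of these, 1 of 8, 0 of 5, 1 of 5, 2 of 4, and 1 of 3 tested genes passed the F-test (8.34% of all probes did), and 0 of 5 pituitary genes could be tested.

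As alternatives, arrays were left unscaled, quantile normalized, background-corrected by normexp (offset 50), or taken from the deposited table. Outlier spots were kept, the filter was dropped or required of all 8 arrays, and dim signals were set to the array's lowest measured value. Other fits used the replicate number as a block, trended and robust moderation, no moderation with the Tukey-Kramer test of the study's statistics section, only the 2 nuclei compared, or left out each array in turn. The Tukey-Kramer p-values already allow for the pairs of nuclei, and they were then also adjusted by Benjamini and Hochberg over all probes.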

Additional observations from a re-analysis of the deposited data

How the results depend on the processing

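Of the F-tests of the 7 probes under all alternatives, 124 kept their side of the threshold, 3 moved past it, and 4 no longer passed it. Of the pairwise differences, 766 kept direction and side, 20 moved past the threshold, 30 no longer passed it, and 10 changed sign, and none of those 10 was a call. Without moderation and with the Tukey-Kramer test, the number of probes called by the F-test fell from 2410 to 527, and the adjusted p of the F-tests of *Nts* and *Sort1* (A_52_P590396) went to 0.0701 and 0.0720. All pairwise calls of the members were lost there at the same log2 differences, namely 3.49, 5.62, 3.02, and 5.15 for *Nts* (DMH and LH above the Arc, DMH and LH above the VMH), 1.62, 2.03, and 2.42 for *Ntsr1* (VMH, DMH, and LH above the Arc), and 2.03 and 2.01 for *Sort1* (VMH and LH above the Arc). Beside the block and the fits without an array, the other alternatives ended only DMH calls of *Nts*, and among the F-tests moved only that of *Ntsr1* A_55_P2185476. Against the Arc, the DMH call of *Nts* was lost under normexp (log2 difference 1.201, adjusted p = 0.0630) and with dim signals raised (1.52, adjusted p = 0.0686). Against the VMH it was lost with no filter (3.02, adjusted p = 0.0547) and in a fit of only the 2 nuclei compared (3.02, adjusted p = 0.0585). The F-test of *Ntsr1* (A_55_P2185476) was passed under normexp (0.0217) and with trended and robust moderation (0.0460). The cause was not tested. A filter on all 8 arrays gives no value for *Nts* or A_55_P2185476.

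With the replicate number, which is the slide row, as a block, 2081 probes were called by the F-test. The deviations of arrays with the same number correlated at -0.0256 to 0.258 over the 6 pairs of nuclei, so the numbers were not taken to pair the arrays. With the block the DMH differences of *Nts* were 3.49 to the Arc (adjusted p = 0.0536) and 3.02 to the VMH (adjusted p = 0.0626), and no other call of the members changed.

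Leaving out 1 array at a time, with a lone array assumed to vary like the others, gave 897 to 3650 probes called by the F-test. The adjusted p of the F-test was 0.00518 to 0.0246 for *Nts*, 0.00422 to 0.0333 and 0.0609 to 0.241 for the *Ntsr1* probes, 0.204 to 0.518 and 0.293 to 0.621 for the *Ntsr2* probes, and 0.0218 to 0.428 (A_51_P517145) and 0.0132 to 0.0720 (A_52_P590396) for *Sort1*. The log2 difference of *Nts* was 3.09 to 3.89 (DMH above the Arc), 5.49 to 5.75 (LH above the Arc), 2.23 to 3.82 (DMH above the VMH), and 4.35 to 5.95 (LH above the VMH). For *Ntsr1* it was 1.48 to 1.75 in the VMH, 1.90 to 2.17 in the DMH, and 2.28 to 2.56 in the LH, each above the Arc, and for *Sort1* 1.86 to 2.21 in the VMH and 1.88 to 2.15 in the LH. The uncalled differences that changed sign were VMH minus Arc of *Nts* (-0.12 with dim signals raised, -0.33 to 1.27 without an array) and of A_55_P2185476 (-0.16 to 1.09), DMH minus VMH of *Ntsr2* (-0.060 to 0.144 and -0.012 to 0.180, below 0 without VMH1 or DMH1), LH minus DMH of A_55_P1974527 (-0.013 with no scaling), and LH minus VMH of *Sort1* (-0.25 to 0.96 at A_51_P517145, below 0 without LH1, and -0.19 to 0.16 at A_52_P590396, above 0 without VMH1). The number of list genes passing the F-test ranged over the other settings from 0 to 3 for processing and breakdown, from 0 to 5 for the sortilin list, from 3 to 6 for Gq signaling, from 6 to 9 for the LH neuron genes, and from 3 to 4 for the dopamine genes. Without 1 array at a time it was 0 to 2 (processing), 2 to 4 (sortilin), 0 to 6 (Gq), 8 to 9 (LH neuron genes), and 4 each time (dopamine).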
